A study of Mus musculus with 3 samples.

Results

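The guanylate-binding proteins (GBPs) were followed through 3 single-cell RNA-Seq libraries of murine bone marrow derived macrophages (BMDMs). The 9 genes were taken by their symbols, *Gbp2*, *Gbp2b*, *Gbp3*, *Gbp4*, *Gbp5*, *Gbp6*, *Gbp7*, *Gbp8* and *Gbp9*, and all 9 were found among the 32285 genes of the matrices, where *Gbp10* was the 1 remaining numbered Gbp gene. The BMDMs came from pooled bone marrow of female C3H/HeN mice aged 6 to 8 weeks. Cells treated with PBS and left without lipoprotein formed the group UI. Cells given lipoproteins purified from *Borrelia burgdorferi*, the Lyme disease spirochete (BbLP, 1 µg/mL), formed the group LP1 after 1 hour and LP4 after 4 hours. The UI cells were also collected at 4 hours, and the cells of 3 wells were pooled for each library. Each condition is therefore 1 library with no replicate, no test between conditions was possible, and the 95% intervals given after each value are exact and cover counting error alone.

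GBPs are large GTPases that are made at low levels in resting macrophages and are induced by interferons and by Toll-like receptor signals. They bind GTP, assemble into oligomers on membranes, and coat the vacuoles of intracellular microbes or the surface of bacteria that reach the cytosol. The coat helps to break these compartments open and to expose microbial products to the caspases of the inflammasome. Some members, Gbp2, Gbp5 and Gbp2b (also called mouse Gbp1) among them, end in a sequence that receives a lipid anchor.

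The 9 genes lie in a pair of arrays. According to the GENCODE annotation of GRCm38, the build to which the reads were aligned, 5 of them lie on the plus strand of chromosome 3: *Gbp5* at chr3:142493978-142522344, *Gbp7* at chr3:142530342-142550149, *Gbp3* at chr3:142560026-142573209, *Gbp2b* at chr3:142594847-142619179 and *Gbp2* at chr3:142620602-142638008. The other 4 are on the minus strand of chromosome 5, where *Gbp8* (chr5:105014150-105139540), *Gbp9* (chr5:105077630-105139539) and *Gbp4* (chr5:105115767-105139586) overlap and *Gbp6* (chr5:105270702-105293698) lies apart. The overlapping genes share between 0.814% and 1.77% of their exonic bases. This covers exons alone. *Gbp9* lies wholly and *Gbp4* mostly within the span of *Gbp8*, and whether reads in introns were counted was not looked at. Among the members, near-identical sequence was most of a limit for *Gbp6*. Of the 90-base windows in the last 1000 bases of its coding transcript, 47.9% also occur in *Gbp10*, against 4.69% of the *Gbp8* windows shared with other genes and none of the windows of *Gbp2*, *Gbp2b*, *Gbp5*, *Gbp7* and *Gbp9*. In the other direction, 90.1% of the *Gbp10* windows also occur in *Gbp6*. How reads shared between such copies were counted is not given in the sources used here, so the counts of *Gbp6* and *Gbp10* are uncertain. The reads of C3H/HeN cells were aligned to the C57BL/6J reference, and the effect on these genes was not tested.

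RefSeq promoter windows (GRCm38.p6, 250 bases before to 50 after a gene start) were found for 5 of the 9 members, namely *Gbp2*, *Gbp2b*, *Gbp3*, *Gbp5* and *Gbp7*. They were searched on both strands for GAAANNGAA, the core of the interferon-stimulated response element (ISRE) that proteins of the IRF family bind. They were also searched for TTCNNNGAA, the gamma-activated site (GAS), and for GGNNNTTCC, a short form of the NF-κB site. Windows of 3 members are shown, those of *Gbp5* and *Gbp7* because they had the largest and the smallest difference among the 5 after 4 hours, and that of *Gbp3* because its matches overlap. Each is on the plus strand, 5′ to 3′, with the ISRE core matches (here read on the opposite strand) in capitals.
Gbp5, chr3:142496684-142496983: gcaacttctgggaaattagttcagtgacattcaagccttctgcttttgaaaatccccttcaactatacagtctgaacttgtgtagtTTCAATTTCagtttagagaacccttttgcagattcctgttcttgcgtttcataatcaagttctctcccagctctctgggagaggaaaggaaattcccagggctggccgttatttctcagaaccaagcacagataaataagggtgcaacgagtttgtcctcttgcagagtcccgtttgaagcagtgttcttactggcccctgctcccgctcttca
Gbp7, chr3:142530086-142530385: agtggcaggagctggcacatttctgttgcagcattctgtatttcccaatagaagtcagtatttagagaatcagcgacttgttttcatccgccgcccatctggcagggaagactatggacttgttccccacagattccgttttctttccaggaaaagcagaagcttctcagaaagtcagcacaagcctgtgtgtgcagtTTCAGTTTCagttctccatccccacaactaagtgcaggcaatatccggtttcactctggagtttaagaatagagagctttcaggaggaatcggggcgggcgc
Gbp3, chr3:142559794-142560093: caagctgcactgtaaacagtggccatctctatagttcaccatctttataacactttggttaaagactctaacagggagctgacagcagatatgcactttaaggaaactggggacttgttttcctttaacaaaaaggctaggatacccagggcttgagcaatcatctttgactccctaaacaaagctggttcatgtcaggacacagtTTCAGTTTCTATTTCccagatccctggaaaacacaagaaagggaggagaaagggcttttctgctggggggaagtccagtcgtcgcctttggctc

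All 5 members held an ISRE core in a window, as did 8.56% of all 32851 promoter windows of the table. The match began 164 bases before the start of *Gbp5* (TTCAATTTC), 52 before *Gbp7* (TTCAGTTTC), 136 before *Gbp2b* (TTCACTTTC) and 58 before *Gbp2* (TTCACTTTC). These are RefSeq starts. The *Gbp5* window lies inside the gene as annotated in GENCODE, which begins at chr3:142493978, so the 2 sources differ in its start. In *Gbp3* a pair of matches that share bases began 44 and 38 bases before the start (TTCAGTTTC and TTCTATTTC), and the window of its second listed start, chr3:142560106-142560405, held none. A GAS was found in 2 of the 5 members, *Gbp5* (52 and 245 bases before the start) and *Gbp7* (87 and 106 bases before), against 8.30% of all windows. The NF-κB letters were found in *Gbp5*, 77 bases before the start, and in *Gbp2*, 7 bases after it, against 18.5% of all windows. These are matches of letters, and no binding was measured.

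After filtering, 6071 UI, 5065 LP1 and 4670 LP4 cells were kept of 6123, 5119 and 5039 deposited barcodes, with medians of 5133, 9343 and 11784 unique molecular identifiers (UMIs, each a counted transcript molecule) per cell. Of the barcodes, between 4 and 10 sequences were shared by any pair of libraries. The 12 macrophage markers checked were all present in each library and summed to between 12032 and 12549 counts per 1000000 UMIs of all kept cells (CPM). The 8 T or NK cell markers summed to 8, 12 and 9 UMIs in UI, LP1 and LP4, with *Cd3e* and *Ncr1* at 0 in all 3. The 12 neutrophil markers summed to 582, 481 and 786 CPM, and the Gbp values of a neutrophil-like cluster are given below. The dendritic cell markers summed to 153, 152 and 156 CPM, the cycling markers to 822, 908 and 785 CPM, and the mast cell or basophil markers to 5, 4 and 5 UMIs. The fibroblast markers summed to 3.05, 4.76 and 16.7 CPM, and a fibroblast-like cluster held 23 UI, 20 LP1 and 20 LP4 cells, whose median LP4 cell had 5.5 member UMIs at the depth of 5000 UMIs used below. Median mitochondrial shares were 1.97%, 2.84% and 3.17%. The closing section gives results with other limits on depth and mitochondrial share. The part of the differences in depth and mitochondrial share that remain between libraries was not tested.

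In untreated BMDMs the Gbp transcripts were scarce, and all 9 had a higher level in LP4 than in UI. The members summed to 116 CPM in UI (113 to 120), 96.0 CPM in LP1 (93.4 to 98.7) and 1865 CPM in LP4 (1854 to 1876). The LP4 over UI log2 ratio of the sum was 4.00 (3.96 to 4.05), and LP4 was 19.4-fold above LP1, a log2 ratio of 4.28 (4.24 to 4.32). LP1 stood slightly below UI, at a log2 ratio of -0.28 (-0.34 to -0.22). In bulk sums of this kind, more transcripts per cell and more cells with transcripts cannot be told apart, so shares of cells and values per cell follow further on.

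**Figure D1:**
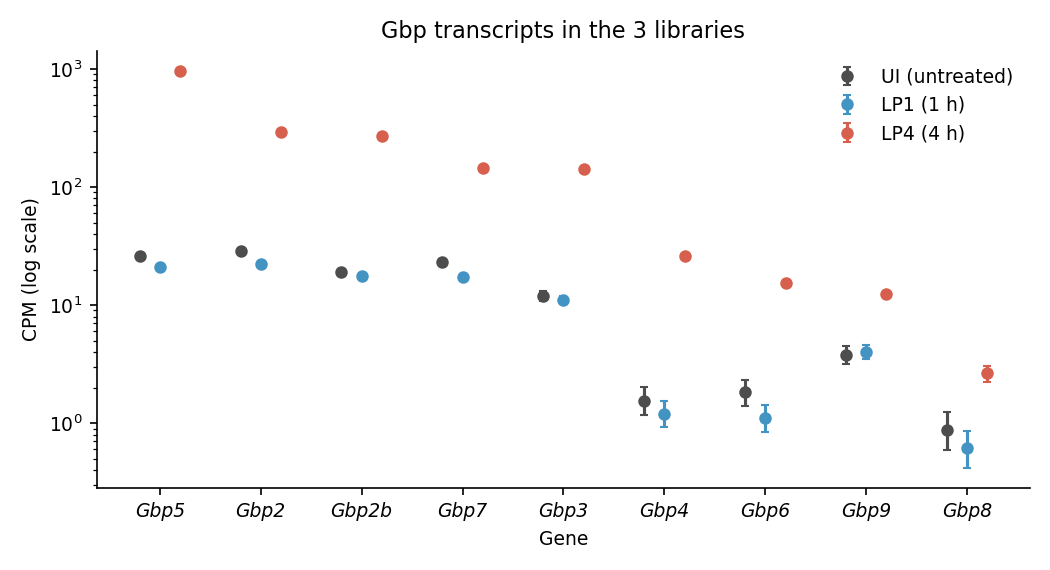
CPM of the 9 Gbp genes in the 3 libraries, on a log axis, with genes ordered by their LP4 level. Points are the value of 1 library and bars the exact 95% Poisson interval. The LP4 point lies above the UI and LP1 points for all 9 genes, and *Gbp5* reaches 961 CPM.

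*Gbp5*, which promotes NLRP3 inflammasome assembly, had 928 UMIs in UI, 1097 in LP1 and 59005 in LP4, or 26.0 CPM (24.4 to 27.7), 20.9 CPM (19.7 to 22.2) and 961 CPM (953 to 969). Its LP4 level was 37.0-fold that in UI, a log2 ratio of 5.21 (5.11 to 5.30), which placed it at rank 24 of 14361 genes compared. In LP4, 137 genes of the matrices had a higher CPM than *Gbp5*, against 4902 genes in UI. *Gbp5* gave 22.3% of all member UMIs in UI, 21.8% in LP1 and 51.5% in LP4, so it went from a level next to *Gbp2* to more than the other 8 members together.

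*Gbp2*, a lipid-anchored member that is recruited to pathogen vacuoles, had 28.6 CPM in UI (26.9 to 30.4), 22.4 CPM in LP1 (21.1 to 23.7) and 294 CPM in LP4 (289.5 to 298), a 10.3-fold difference between LP4 and UI. *Gbp2b* had 18.9 CPM in UI (17.5 to 20.4), 17.5 CPM in LP1 (16.4 to 18.7) and 268 CPM in LP4 (264 to 272), a 14.2-fold difference. *Gbp3* had 11.9 CPM in UI (10.8 to 13.1), 11.0 CPM in LP1 (10.2 to 12.0) and 141 CPM in LP4 (138 to 144), an 11.9-fold difference. In all 3 genes the LP4 level was the highest of the 3 libraries, while the UI and LP1 intervals overlapped for *Gbp2b* and *Gbp3*. Counting intervals alone separate libraries easily. Of all genes compared, 28.9% had an LP1 over UI ratio with an interval wholly below 0 and 22.2% wholly above. *Gbp7*, linked to assembly of the phagocyte NADPH oxidase, had 23.0 CPM in UI (21.5 to 24.6), 17.3 CPM in LP1 (16.2 to 18.4) and 145 CPM in LP4 (142 to 148). It was the member of the chromosome 3 array with the smallest difference, 6.29-fold or a log2 ratio of 2.65 (2.55 to 2.76).

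The 4 members on chromosome 5 were rarer. *Gbp4* had 55, 63 and 1589 UMIs in UI, LP1 and LP4, or 1.54 CPM (1.16 to 2.01), 1.20 CPM (0.923 to 1.54) and 25.9 CPM (24.6 to 27.2). Its 16.8-fold difference between LP4 and UI was the second highest of the family, at a log2 ratio of 4.07 (3.68 to 4.48). This interval holds that of *Gbp2b* (3.83, 3.71 to 3.94) and overlaps that of *Gbp3* (3.57, 3.43 to 3.72), so the counts do not settle the rank. *Gbp6* had 65, 58 and 944 UMIs, or 1.82 CPM (1.41 to 2.32), 1.11 CPM (0.839 to 1.43) and 15.4 CPM (14.4 to 16.4), and was 8.44-fold higher in LP4 than in UI. These 2 genes thus started near the bottom of the family and showed differences of the size seen on chromosome 3. *Gbp9* and *Gbp8*, whose spans overlap on the same strand, differed least. *Gbp9* had 136, 210 and 755 UMIs, or 3.81 CPM (3.20 to 4.51), 4.00 CPM (3.48 to 4.58) and 12.3 CPM (11.4 to 13.2), a 3.23-fold difference. *Gbp8* had 31, 32 and 162 UMIs, or 0.869 CPM (0.590 to 1.23), 0.610 CPM (0.417 to 0.861) and 2.64 CPM (2.25 to 3.08), a 3.04-fold difference. *Gbp10*, not a member, had 35, 34 and 302 UMIs and was 5.02-fold higher in LP4 than in UI.

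The order of the members differed between UI and LP4. Because the libraries count 1 end of each transcript, levels were compared between genes without scaling by length. In UI the order was *Gbp2*, *Gbp5*, *Gbp7*, *Gbp2b*, *Gbp3*, *Gbp9*, *Gbp6*, *Gbp4* and *Gbp8*, and the intervals of *Gbp2* and *Gbp5*, *Gbp5* and *Gbp7*, *Gbp6* and *Gbp4*, and *Gbp4* and *Gbp8* overlapped. In LP4 the order was *Gbp5*, *Gbp2*, *Gbp2b*, *Gbp7*, *Gbp3*, *Gbp4*, *Gbp6*, *Gbp9* and *Gbp8*, and the intervals of *Gbp7* and *Gbp3* were the sole neighbours to overlap. *Gbp9* was above *Gbp4* and *Gbp6* in UI and below both in LP4. Since the counts of *Gbp6* are uncertain, because of the sequence it shares with *Gbp10*, its place in both orders is uncertain too.

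At 4 hours, all 9 members were at least 2-fold higher than in UI, a step that 11.6% of 14361 genes passed (those whose UMIs in UI and LP4 added up to 20 or more), and none was 2-fold lower, as 15.6% of genes were. The median log2 ratio of the members was 3.36, beside -0.15 over all genes compared. All 9 were also at least 2-fold higher in LP4 than in LP1 (background 10.9% of 14506 genes) and none was 2-fold lower (12.5%), with a median log2 ratio of 3.71 beside -0.10. The LP4 over UI and LP4 over LP1 ratios share the LP4 library and are not independent. Every member also reached 2-fold in LP4 over UI when the total was scaled by TMM or median-of-ratios factors, which moved the median of all genes by 0.17 and 0.21 on the log2 scale, and in the macrophage-like cells alone.

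At 1 hour no member was 2-fold higher than in UI, where 1.45% of 14085 genes were, and none was 2-fold lower, where 3.15% were. Small differences lay on the lower side. The interval of the LP1 over UI ratio was wholly below 0 for 4 members, *Gbp2* (-0.35, -0.48 to -0.23), *Gbp5* (-0.31, -0.44 to -0.19), *Gbp6* (-0.72, -1.26 to -0.19) and *Gbp7* (-0.41, -0.55 to -0.28), and wholly above 0 for none. At this depth 28.9% of all genes had an interval wholly below 0 and 22.2% wholly above, so such an interval was common among genes of these 2 libraries. The other 5 members, *Gbp2b*, *Gbp3*, *Gbp4*, *Gbp8* and *Gbp9*, had intervals that held 0. Besides the BbLP, the LP1 and UI cells differed in the time at which they were collected, and the 2 cannot be told apart.

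**Figure D2:**
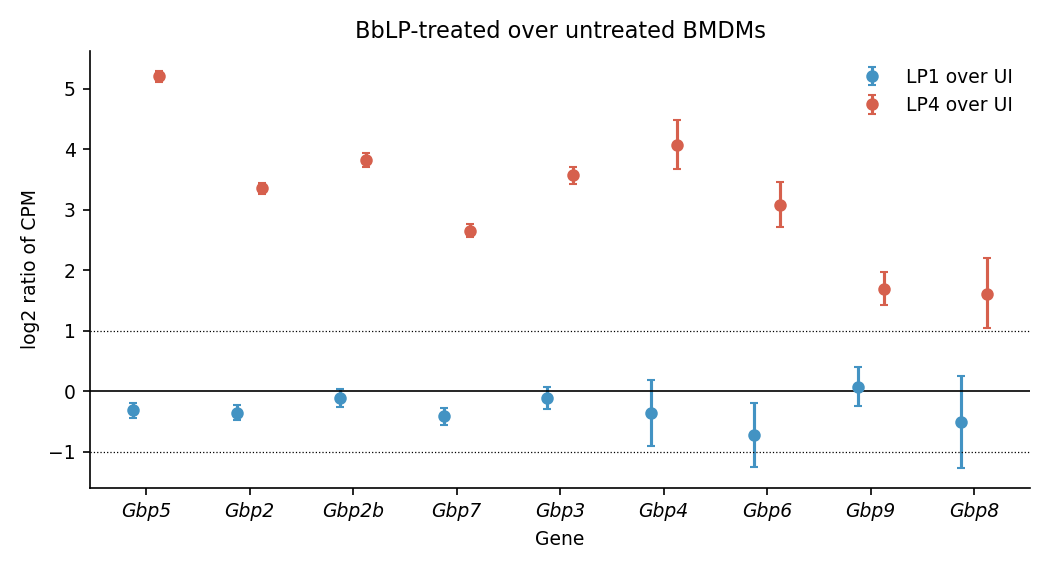
Log2 ratio of CPM for the 9 Gbp genes, LP1 over UI and LP4 over UI, both against the same UI library. Bars are exact 95% intervals of counting error and dotted lines mark 2-fold. The LP4 ratios run from 1.60 (*Gbp8*) to 5.21 (*Gbp5*), while the LP1 ratios lie between -0.72 (*Gbp6*) and 0.07 (*Gbp9*).

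The higher level at 4 hours was spread over most cells. After each cell was thinned to 2000 UMIs, to make depth equal, at least 1 member UMI was found in 16.6% of 5949 UI cells (15.6 to 17.5), 14.3% of 5052 LP1 cells (13.3 to 15.3) and 89.9% of 4625 LP4 cells (89.0 to 90.8). Thinning left out 122, 13 and 45 shallower cells, and the shares without thinning were 30.9%, 37.7% and 98.2%. *Gbp5* was seen in 4.39% of UI, 3.56% of LP1 and 75.1% of LP4 cells (73.9 to 76.4). *Gbp2* went with 5.70%, 4.18% and 41.6%, *Gbp2b* with 3.61%, 3.64% and 38.8%, *Gbp7* with 4.52%, 3.76% and 24.3%, and *Gbp3* with 2.34%, 2.28% and 23.7%. The members on chromosome 5 stayed rare per cell at this depth, at 4.26% of LP4 cells for *Gbp4*, 2.57% for *Gbp6*, 2.31% for *Gbp9* and 0.432% for *Gbp8*. The UI and LP1 shares were 0.353% and 0.257% for *Gbp4* and 0.387% and 0.297% for *Gbp6*. They were 0.689% and 1.03% for *Gbp9*, and 0.219% and 0.139% for *Gbp8*. The direction of the shares between UI and LP4 was that of the CPM for each member. For *Gbp8*, though, the UI (0.116 to 0.373) and LP4 (0.264 to 0.667) intervals overlapped, from 13 and 20 cells.

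Free RNA in droplets can give UMIs to cells that do not express a gene, so the share was set beside that of neutrophil-like cells, a small cluster led by *Mpo* and *Elane*. In LP4, 4 of its 28 cells (14.3%, 4.03 to 32.7) had a member UMI at the same thinned depth and none had a *Gbp5* UMI, where 75.1% of all LP4 cells did. In UI, 2 of 21 such cells (9.52%, 1.17 to 30.4) had a member UMI, an interval that holds the 16.6% of all UI cells. The UI share was thus not distinguishable from that of the neutrophil-like cells at this number of cells. Whether their UMIs are free RNA or their own transcripts was not tested. Summed over the cells of the cluster, the members had 76.5 CPM in UI (33.0 to 151), 22.3 CPM in LP1 (4.60 to 65.2) and 83.4 CPM in LP4 (51.0 to 129). The cells of this cluster thus had few Gbp transcripts in LP4, where the members summed to 1865 CPM over all cells. Which other cells hold neutrophil markers was not looked at.

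Cells thinned to 5000 UMIs showed how the family was shared out within a cell. Shallower cells were left out, so 3172 of 6071 UI, 4736 of 5065 LP1 and 4451 of 4670 LP4 cells remained. The UI cells left out included most of cluster B, described below, which had the highest summed Gbp CPM in UI. It held 1614 of the 6071 UI cells but 256 of the 3172 thinned ones. UI values at this depth thus describe the deeper cells, and the effect of the loss was not tested. Of 4451 LP4 cells the median cell held 9 member UMIs (5 to 13 between quartiles), the 5th percentile 1, the 95th percentile 21, and the highest cell 48. A total of 118 cells (2.65%) held none. The median LP4 cell showed 3 different members, 2121 cells (47.7%) showed at least 4, and 4 cells showed all 9. *Gbp5* had more UMIs than any other member in 2993 cells (67.2%). In UI and LP1 the median cell held 0, and 74.7% of 3172 UI cells and 73.8% of 4736 LP1 cells had no member UMI.

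**Figure D3:**
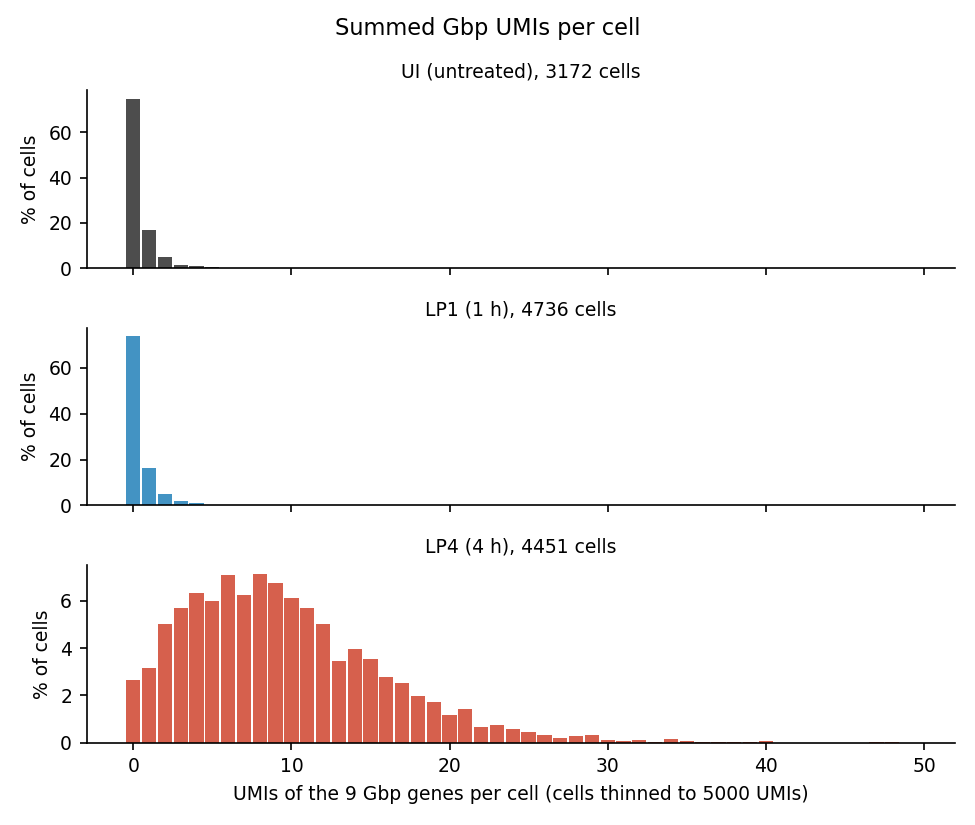
Summed UMIs of the 9 Gbp genes per cell, as the percentage of the cells shown of each library, after each cell was thinned to 5000 UMIs. Cells under 5000 UMIs are left out, and 3172 of 6071 UI cells are shown. Each panel has its own vertical scale. In UI and LP1 most cells sit at 0, and in LP4 the distribution has 1 broad hump with its median at 9.

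The few Gbp transcripts of untreated cells were held unevenly. The 10% of cells with most member UMIs held 67.3% of them in UI and 70.5% in LP1, against 23.7% in LP4. Such a share also falls as counts rise, and the mean was 0.467 UMIs per cell in UI, 0.549 in LP1 and 9.56 in LP4. In UI, 20 cells (0.631%) had at least the LP4 median of 9 member UMIs, and in LP1 39 cells (0.823%) did. Of these, 10 of the 20 UI cells and 30 of the 39 LP1 cells belonged to the macrophage-like cluster B described next. Of the cells thinned, B made up 8.07% in UI (256 of 3172) and 20.2% in LP1 (956 of 4736). Before the depth limit it held 1614 of 6071 UI and 1151 of 5065 LP1 cells, so the 8.07% is not its share of the library. The median of the cells with at least 9 member UMIs showed 5 different members in both libraries. They also carried transcripts of other interferon-stimulated genes. The mean of *Rsad2*, which encodes the antiviral enzyme viperin, was 18.3 UMIs in the 20 UI cells and 0.422 in the other UI cells, and 26.5 against 0.380 in LP1. The mean of *Ifit1*, whose product binds viral RNA, was 5.10 against 0.135 UMIs in UI and 6.21 against 0.120 in LP1. These cells were picked by their Gbp counts, and the values are a description.

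In LP4 the variance of the counts over cells was above the mean for all 9 members. The ratio was not computed for genes outside the family, and the cells pool clusters with different Gbp levels. That all 9 lay above 1 is therefore no finding about this family. *Gbp4* UMIs were found in 362 of the thinned cells (8.13%) with up to 9 in 1 cell, and the variance of its counts over cells was 2.41 times the mean. The ratio was 3.02 for *Gbp5*, 1.97 for *Gbp2b*, 1.72 for *Gbp2*, 1.40 for *Gbp6*, 1.39 for *Gbp3*, 1.31 for *Gbp9*, 1.21 for *Gbp7* and 1.17 for *Gbp8*. *Gbp4* thus stood above *Gbp2*, *Gbp2b*, *Gbp3* and *Gbp7* in this ratio, at a lower mean. Across the LP4 cells all 36 pairs of members had a positive Spearman correlation, from 0.026 (*Gbp7* and *Gbp8*) to 0.331 (*Gbp2* and *Gbp5*), with a median of 0.116. *Gbp2b* with *Gbp5* gave 0.296 and *Gbp2* with *Gbp2b* 0.282. All 36 were also above 0 in UI (median 0.108, highest 0.204) and LP1 (median 0.121, highest 0.237). These cells share a library and a thinned depth, and they come from clusters with different Gbp levels. No correlation was computed within a cluster or for pairs of other genes, so the positive signs are a description. The weak values among rare members are no finding.

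Clustering was done on genes that differed little between libraries and without any Gbp gene. Of 9 clusters, 6 had at least 50 cells in each library, of which A, B, C and D were macrophage-like, E was cycling-like and F dendritic cell-like, and the last had 72, 61 and 64 cells. Cluster A was led by *Fgf13* and *Ccnd1*, B by *Egr3*, the interferon-induced *Ifitm1* and *Apoe*, C by *Mgll*, *Eef1a2* and *Mmp9*, and D by *Cxcl5* and *Hal*. Depth differed among them, with medians of 7474 UMIs per cell in A, 5380 in B, 10775.5 in C and 9760 in D, and its part in the values was not tested. Levels in clusters are a description, since other genes of the same cells made the clusters. In UI the members summed to 298 CPM in B (285 to 312) and 248 CPM in F (202 to 302), but to 118 in D, 72.3 in E, 61.9 in A and 52.9 CPM in C (48.4 to 57.7). In LP4 the sums were 2766 CPM in B, 2674 in F, 1923 in D, 1789 in A, 1649.9 in C and 1259.5 in E. The highest cluster was thus 5.64 times the lowest in UI, 6.58 times in LP1 and 2.20 times in LP4.

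The smaller spread in LP4 came with unequal ratios. LP4 over UI for the sum was lowest in B, at a log2 ratio of 3.21 (3.14 to 3.28), and highest in C, at 4.96 (4.84 to 5.09), with 4.85 in A, 4.12 in E, 4.03 in D and 3.43 in F. The log2 ratio of *Gbp7* ran from 1.56 in B (1.41 to 1.72), where it went from 66.0 CPM in UI to 195 in LP4, to 4.12 in C (3.79 to 4.46), where it went from 8.05 to 139.6 CPM. *Gbp5* ran from 4.15 in B (74.5 to 1321 CPM) to 6.77 in C (7.94 to 864 CPM). For 8 of the 9 members the LP4 over UI interval lay above 0 in all 6 clusters, as it did for 6.9% of the 14361 genes compared. The exception was *Gbp8*, for which it did in 3. At Leiden resolutions of 0.3 and 0.8 the count was 7 members, in all 4 (7.14% of genes) and all 9 clusters (6.23%) with at least 50 cells in each library. *Gbp9* was then a second exception, with an interval above 0 in 3 of 4 and in 8 of 9 clusters. The size limit left out a macrophage-like cluster at 0.8, led by *Gbp4*, that held 86 UI, 47 LP1 and 857 of the 4670 LP4 cells. Among the 6 clusters, *Gbp4* in LP4 was highest in F (99.9 CPM, 79.0 to 125) and B (86.2 CPM, 79.8 to 93.0). The other 4 clusters had 21.6 CPM or less. At 0.8 the dendritic cell-like cluster had 92.2 CPM in LP4 (74.4 to 113). The 0.8 cluster led, like B, by *Egr3* held 1559 UI but 127 LP4 cells, with *Gbp4* at 31.8 CPM in LP4 (22.6 to 43.5). The *Gbp4* CPM of the cluster left out was not computed. Whether B holds the same kind of cells in UI and LP4 was not tested.

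**Figure D4:**
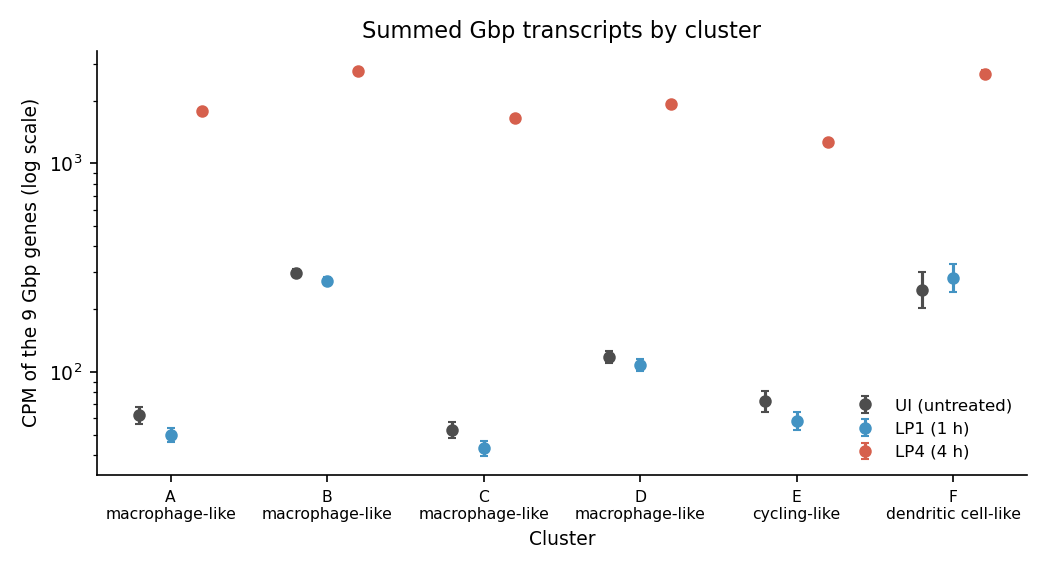
Summed CPM of the 9 Gbp genes in 6 clusters and 3 libraries, on a log axis, with exact 95% Poisson bars. B and F are highest in all 3 libraries, and the clusters lie closer together in LP4 (1259.5 to 2766 CPM) than in UI (52.9 to 298 CPM).

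At 1 hour the LP1 over UI interval of the sum lay below 0 in 4 of the 6 clusters. The log2 ratios there ran from -0.31 in E to -0.12 in B (-0.21 to -0.03), and the intervals of D and F held 0. At resolutions 0.3 and 0.8 the interval lay below 0 in 3 of 4 and 5 of 9 clusters. The share of all genes that did so by cluster was not computed, and over whole libraries it was 28.9%. TMM and median-of-ratios factors moved LP1 over UI by 0.07 and 0.08, more than the distance of B's upper bound from 0. A pair of members went the other way within a cluster, *Gbp2b* in F (1.11, 0.19 to 2.14, from 13 and 42 UMIs) and *Gbp9* in B (0.62, 0.04 to 1.23, from 38 and 74 UMIs). These rest on few UMIs, and the ratios of all 9 members in all 6 clusters were looked at. Within LP4 the median cell of each cluster held 13.5 member UMIs in F, 13 in B, 9 in D, 8 in A and C and 5 in E at 5000 UMIs, and 0 in the 20 neutrophil-like cells. At most 1 member UMI was found in 2.72% of cells in B and 13.0% in E.

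Among the 3217 genes outside the family with at least 50 CPM in LP4, those whose counts followed the summed members most closely across LP4 cells were *Rsad2* (Spearman 0.520), *Ifit1* (0.487), *Parp14* (0.438), *Cmpk2* (0.434) and *Ifit2* (0.422), where the median gene gave -0.014. For *Gbp5* alone the leading genes were *Rsad2* (0.403), *Ifit1* (0.383), *Parp14* (0.363), *Il15* (0.358) and *Cxcl10* (0.337). For *Gbp2* they were *Rsad2* (0.324), *Ifit1* (0.315), *Ifit2* (0.276), *Cmpk2* (0.272) and *Parp14* (0.270). *Irgm1* gave 0.186 with the summed members and *Irf1* 0.182. More abundant genes are measured with less noise at a fixed depth, so these values also depend on level, which was 4995 CPM for *Rsad2* and 205 CPM for *Irf1* in LP4.

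The genes that signal to, place or work with the GBPs were counted whole, by role. Of the inducers and their receptors, 1 of 5 compared was at least 2-fold higher in LP4 than in UI, beside 11.6% of all genes compared. None was 2-fold lower, beside 15.6% of all genes. The higher gene was *Ifnb1*, encoding interferon β, with 2, 10 and 96 UMIs in UI, LP1 and LP4, and the 96 UMIs came from 51 of 4670 cells. *Ifng* had 0, 1 and 1 UMIs, too few to compare. The receptor genes differed less, with *Ifngr2* at 0.83, *Ifnar1* at 0.55, *Ifnar2* at 0.43 and *Ifngr1* at -0.62 on the log2 scale.

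Of the 11 kinases and transcription factors, 5 were at least 2-fold higher in LP4 than in UI (11.6% of all genes) and none was 2-fold lower (15.6%). The 5 included *Nlrc5* (3.45), a transactivator of MHC class I genes, *Stat2* (3.14), *Batf2* (2.26) and *Jak2* (2.01), and *Tyk2* stood just under the step at 0.997. *Irf7* (0.40), *Irf9* (0.23), *Irf1* (0.18) and *Irf8* (-0.47) were not among them. In LP1 none of the 11 reached 2-fold over UI, where 1.45% of all genes were 2-fold higher and 3.15% lower. The median LP1 over UI log2 ratio of the 11 was -0.27, beside -0.04 over all genes compared. *Nlrc5* (-0.40) and *Irf7* (-0.39) lay lower, while *Jak2* (0.11), *Tyk2* (0.07), *Irf8* (0.01) and *Jak1* (-0.01) lay near 0 or above. Of all genes, 28.9% had an LP1 over UI interval wholly below 0. The LP1 and LP4 ratios share the UI library.

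The immunity-related GTPases and the autophagy conjugation proteins place GBPs on vacuoles. Of 9 such genes compared, 3 were at least 2-fold higher in LP4 than in UI, beside 11.6% of all genes. All 3 were immunity-related GTPases, *Irgm2* (5.06, 4.79 to 5.35), *Irgm1* (3.32) and *Igtp* (3.20). *Irgm2* went from 108 UMIs in UI and 198 in LP1 to 6213 in LP4, a 33.4-fold difference between LP4 and UI, next to 37.0-fold for *Gbp5*. The 1 gene that was 2-fold lower, beside 15.6% of all genes, was *Atg7*, the enzyme that activates the conjugation, at -1.28. The other 5 autophagy genes lay between -0.27 (*Atg12*) and 0.72 (*Atg16l1*). Of the 5 enzymes that attach and finish the lipid anchor, 1 was 2-fold higher (11.6% of all genes), the methyltransferase *Icmt* (1.22). *Fnta*, *Fntb*, *Pggt1b* and *Rce1* lay between -0.39 and 0.38.

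Of 8 inflammasome partners, 5 were at least 2-fold higher in LP4 than in UI, beside 11.6% of all genes, and 1 was 2-fold lower, beside 15.6%. The 5 were *Il1b* (1.26), *Il18* (1.24), *Casp4* (1.23), *Aim2* (1.21) and *Casp1* (1.05), which encode cytokines, a DNA sensor and the caspases that GBPs help to activate. The lower gene was *Nlrp3* (-1.54), the sensor with which Gbp5 is linked. The adaptor *Pycard* (-0.78) and the pore protein *Gsdmd* (0.30) did not reach the step. *Pim1*, whose kinase phosphorylates human GBP1, and *Ywhab* and *Ywhae*, which encode 14-3-3 proteins, lay between -0.04 and 0.23. The median log2 ratios were 1.13 for the inflammasome partners, 0.997 for the kinases and factors, 0.55 for inducers and receptors, 0.30 for vacuole targeting, 0.07 for the lipid anchor enzymes and 0.03 for *Pim1* and the 14-3-3 genes, beside 3.36 for the 9 Gbp genes and -0.15 for all genes compared.

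**Figure D5:**
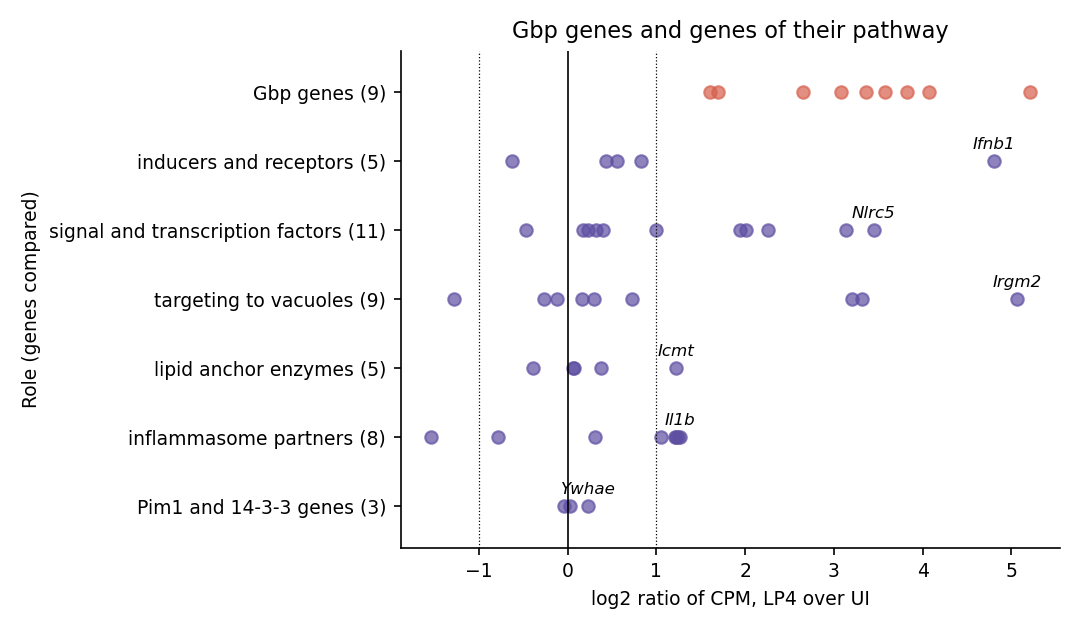
Log2 ratio of CPM, LP4 over UI, of the Gbp genes and of the genes compared in each role, 1 point a gene, with the highest gene of each role named and dotted lines at 2-fold. All 9 Gbp genes lie right of the upper 2-fold line, while each other role also holds genes between the lines.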

How the data were processed

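The deposited matrices hold raw UMI counts per gene and cell, which the authors made with Cell Ranger (version 7.1.0 in the submitters' processing notes) from Chromium 3′ libraries, against the mm10 reference. Samples were grouped by the labelled treatment, with 1 library a condition. Following the study's limits, barcodes with over 500 UMIs, over 500 genes and under 5% mitochondrial UMIs were kept. These limits kept 15806 cells in all, more than the paper reports with the same limits, so the cell sets differ. Counts of the kept cells were summed and given as CPM with exact Poisson intervals (95%). Ratios carry exact conditional binomial intervals, shares carry Clopper-Pearson intervals, and a count of 0 had a floor of 3 counts. PCR copies are collapsed by UMI, and these intervals cover counting error alone.

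A gene was compared where its UMIs in the pair of libraries added up to 20 or more, and was read against a 2-fold step. Cells were clustered in scanpy 1.11.5 (Leiden resolution 0.5) without Gbp genes, on genes that differed by under 1.5 times between libraries. The doublet caller marked between 0% and 0.0214% of cells, so it had not worked, and no doublets were removed. Alternative scaling used edgeR 4.0.16 TMM factors and median-of-ratios factors. Scripts were tested on simulated data. The members, marker and pathway lists were chosen with earlier results of these data known. The named genes are the members, the genes of these lists (some items are not reported here) and, per pattern, the 5 genes outside the family most correlated with it. Gene positions come from GENCODE vM21 and promoters from RefSeq. The other alternatives are in the closing section.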

Additional observations from a re-analysis of the deposited data

Results flagged for a closer look

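The cell filter removed 369 LP4 barcodes, 273 of them by the mitochondrial limit alone, and these barcodes, which no comparison between the libraries uses as reported, also held Gbp transcripts. The 9 members summed to 4670 UMIs in them, or 1379.7 CPM (exact 95% interval 1340.4 to 1419.8). This was above the 115 CPM (46.1 to 236) in the 52 UI barcodes and the 93.9 CPM (62.4 to 136) in the 54 LP1 barcodes that the same filter removed, and below the 1865 CPM of the kept LP4 cells.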

How the results depend on the processing

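The median log2 ratio of the 9 members was 3.36 for LP4 over UI. It was 3.53 with TMM factors, 3.57 with median-of-ratios factors and 3.25 as the mean of cell shares. For LP4 over LP1 it was 3.71, against 3.81 with TMM and 3.84 with median-of-ratios factors. The scalings shift all genes alike. Other settings were judged by whether these medians stayed between the median of the members' lower bounds and that of their upper bounds. They did so with every barcode, without the mitochondrial limit, with at least 2000 UMIs a cell and in macrophage-like clusters alone. The same held without mitochondrial and ribosomal genes in the total and without the 5% of cells with the highest doublet scores. The doublet scores came from the caller that had not worked, so that setting cannot decide on the part of doublets. At a 4-fold step, 7 members passed in LP4 over UI (3.82% of all genes compared) and 8 in LP4 over LP1 (4.03%). With a mean of at least 10 CPM, 6 members were compared in each and all 6 passed 2-fold (10.2% and 8.49% of genes), and with no minimum of UMIs all 9 did (9.98% and 14.9%). With clusters at resolution 0.3 and 0.8 the LP4 over UI log2 ratios by cluster ran from 4.44 to 6.60 and from 4.12 to 7.21 for *Gbp5*, and from 1.70 to 4.09 and from 1.30 to 4.63 for *Gbp7*. These ranges cover clusters with at least 50 cells in each library, which left out a 0.8 cluster with 857 LP4 cells. Of the 18 lowest and highest log2 ratios of the members, 3 moved beyond their interval at 0.3 and 6 at 0.8, and none changed sign. The 4 members with an LP1 over UI interval below 0 numbered 4 with either scaling, alternatives chosen after the data had been seen. Shares of cells follow the thinned depth, and correlations across LP4 cells were lower at 2000 UMIs (*Gbp2* with *Gbp5* 0.195 in place of 0.331). No paired analysis was possible because each condition is 1 library. Low counts limit *Gbp8* most, with 31 UMIs in UI, and a difference between conditions cannot be told apart from one between libraries.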
